A study of Mus musculus with 8 samples.

Results

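Distal 3′ UTR peaks are sites of m6A enrichment that lie in the 3′ untranslated region (3′ UTR) of an mRNA, beyond the zone around the stop codon where this mark is densest. A summit was counted as distal where it fell in a 3′ UTR, more than 200 nt past the stop codon along the spliced transcript. Each gene was represented by its complete coding transcript with the longest coding sequence, and the summit had to lie in that of exactly 1 gene. Of 42744 summits in 4 peak lists, 6019 met this rule. Intervals holding them were merged where they overlapped, which gave 1873 distal regions in 1671 genes, against 11361 regions merged from all summits. All regions were placed on GRCm38 (mm10) with the GENCODE M21 annotation.

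m6A is the methylation of adenosine at its N6 position. A writer complex that contains Mettl3 and Mettl14 deposits the mark co-transcriptionally, mostly in a short consensus called DRACH, in which the letter before the central adenosine is a purine and the one after it is C (D stands for any base but C, and H for any base but G), and reader proteins of the YTH family bind it and can speed mRNA decay. 3′ UTRs also carry the sites of microRNAs and of RNA-binding proteins that set mRNA stability.

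The cells were primary vascular smooth muscle cells (VSMCs) grown from the descending aorta of C57BL/6J mice. They were infected with a lentivirus that carried either a control shRNA (shCTR) or an shRNA against Mettl14 (shMettl14), so both groups were infected cells. Total RNA was cut into fragments and pulled down with an anti-m6A antibody, and there were 2 immunoprecipitated samples (A and B) per shRNA, each with its own input. Neither the labels nor the methods stated that A and B came from separate cultures, so the tests measure the spread between these samples, which may be technical. One shRNA against Mettl14 was used, and a knockdown lowers the writer without removing it.

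The shCTR lists held 11158 (A) and 8655 (B) summits, and the shMettl14 lists 13675 (A) and 9256 (B). The methods give a nominal sequencing depth shared by all samples, but the reads obtained per library are not in the lists. The number of fragments piled up at a summit was recovered from its fold enrichment and p-value. Mettl14 had no summit in its own transcript in any list, so the knockdown could not be checked here. Of the smooth muscle markers, 3 of 8 (Myh11, Cald1 and Lmod1) carried a summit, as did 3 of 5 endothelial markers (Pecam1, Cdh5 and Kdr), 0 of 5 macrophage markers and 1 of 5 fibroblast or adventitial markers (Pdgfra). A summit needs both the mark and the transcript, so this does not measure cell makeup, and in bulk RNA fewer cells of a type cannot be told apart from less RNA per cell.

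The sequences below show the m6A consensus found in the distal regions on which the results turn. Each is 21 nt of the mRNA, 5′ to 3′, centred on the A of the DRACH match nearest to the median summit, with the match in capitals. The antibody locates the mark only to within a fragment, so a match is a description of the sequence and not a mapped methylated base. The first 6 belong to strongly enriched regions, the next 4 to the separate regions of Sned1 in their order along the 3′ UTR, and the last 7 to the regions listed with 1 shRNA alone or with the smallest p-values between shRNAs.
Snx33: gacttagcAAACAatgcagaa
Dcun1d2: tacgaggtGGACAttgctaat
Klf13: atgttctcAGACTgggaaata
Tns3: cagtgatgGAACTgaggagga
Pdgfb: tggttcctGGACCactggcca
Smad3: atgcccccAGACTcttggagc
Sned1 region 1: gctagagtGGACCctggaatt
Sned1 region 2: tgacccttGAACTcccaaaac
Sned1 region 3: ccctgcagTGACCgcacaatc
Sned1 region 4: gctaatcaAAACTgaagatga
Notch2: agaagaacAAACTtgctgttt
Cd80: actaaagaAAACAaagtggtg
Irs2: tcaccacaGGACAcagatggc
Mlxip: tcagatttGAACCagtggagt
Serac1: accacctgAGACTgtcccagc
Gbp7: ttgatattGGACTttctgcag
Gata3: tttgaggaAGACTttattgta

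The 21 nt shown for Dcun1d2 lie at chr8:13256629-13256649, with their central A 1260 nt past the stop codon, and those for Smad3 at chr9:63648957-63648977, with the A 1297 nt past it. The central A of the 4 Sned1 matches lay 492, 2012, 2734 and 3390 nt past the stop codon, and the sequences shown lie between 93296758 and 93299676 on chromosome 1. The 21 nt of Gbp7 lie at chr3:142548046-142548066, and those of Irs2 at chr8:10985189-10985209. All of these positions are in the 3′ UTR of the gene named.

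To determine where distal peaks fell, summits were counted per kb of 3′ UTR by their distance from the stop codon. Density fell without a break past the 200 nt limit. Among genes with a summit it averaged 1.56 summits per kb over the 100 nt that follow the stop codon, 1.005 per kb between 200 and 300 nt, 0.154 per kb between 800 and 1000 nt and 0.0293 per kb between 3000 and 5000 nt. The decline was present in each of the 4 lists, and shMettl14 A, the list with the most summits, was the highest in every bin except that between 2000 and 3000 nt. In the 20 nt on either side of the limit the lists held 62 to 121 summits just inside it and 68 to 120 just outside it, so the limit did not mark an edge in the data.

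**Figure D1:**
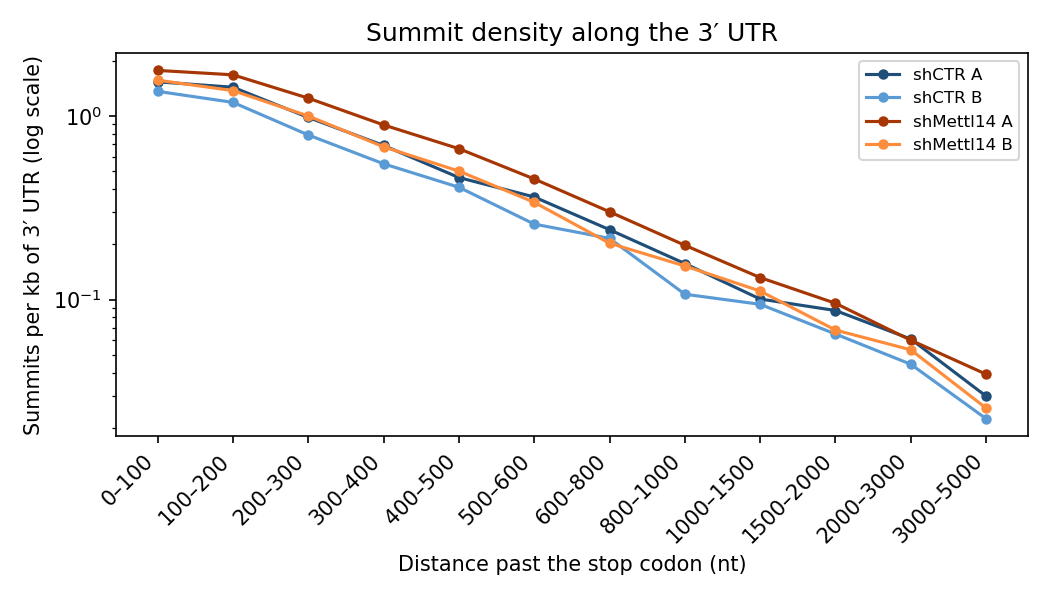
Summits per kb of 3′ UTR (log axis) against distance past the stop codon in nt, with 1 line per immunoprecipitated sample. Mean density falls from 1.56 per kb next to the stop codon to 0.0293 per kb between 3000 and 5000 nt.

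The distal part of each 3′ UTR was then divided into 10 equal parts. The part nearest the stop codon held 35.5 to 37.4% of distal summits across the lists, and the part at the transcript end held 0.748 to 1.35%. The median distance was 457 and 460 nt in the shCTR lists (A and B in turn) and 446 and 444 nt in the shMettl14 lists. The groups did not overlap, with 458.5 ± 2.12 nt for shCTR and 445 ± 1.41 nt for shMettl14 (SD, n = 2), and the exact permutation test gave its smallest possible p of 0.3333 (two-sided). This order depended on how summits were counted: with the strongest summit of each interval alone, shMettl14 lay farther out, at 456.5 ± 2.12 against 444.5 ± 0.707 nt. Genes with a distal region had long 3′ UTRs, with a median of 1816 nt against 1375 nt in genes that had a summit and a 3′ UTR past the limit but no distal region.

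Almost every distal summit (99.6 to 99.7% across the lists) lay in the last exon, as did nearly all distal 3′ UTR sequence. Alternative stop codons touched few regions: 24 of 1873 had a summit within 200 nt of the stop codon of another transcript of the gene, and 3 had one in another coding sequence.

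The share of coding transcript summits that were distal was 17.5 and 16.02% in the shCTR lists and 18.1 and 17.6% in the shMettl14 lists. The means were 16.8 ± 1.04% and 17.9 ± 0.375% (SD, n = 2), a difference of 1.12 percentage points, and the exact permutation p was 0.3333, the smallest that 2 against 2 allows. The difference was 1.86 points without shCTR A, 0.385 without shCTR B and 0.427 with the limit at 400 nt. The shMettl14 lists were both higher than the shCTR lists, with a gap of shMettl14 B over shCTR A that was small beside the spread within shCTR.

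To characterize the strongest distal peaks, those present in every list with a distal summit of their own were ordered by their mean percentile of fold enrichment within the lists. Snx33, which encodes a sorting nexin of endocytosis, was at the top. Its region (chr9:56917880-56918660) had a fold enrichment of 25.2 and 28.2 with shCTR and of 28.5 and 35.4 with shMettl14, with 55 to 72 fragments at the summit. The shMettl14 values were the higher, but the difference in normal score was 0.65 ± 0.49 (SE; limma, adjusted p = 0.992).

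Rgs16, a regulator of G protein signalling, followed at 25.6 to 28.1-fold across the lists, 259 nt past the stop codon. Spop, the substrate adaptor of a ubiquitin ligase, reached 26.0 and 31.1-fold in the shCTR lists and 21.5 and 22.8-fold in the shMettl14 lists. Spop was thus lower with shMettl14 in each list, with a normal score difference of −0.57 ± 0.49 (SE; limma, adjusted p = 0.9998).

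Among the 10 strongest were also regions of Dcun1d2, Klf13, Hdac4, Tns3, Gpr153 and Pou2f1. Those of Snx33, Rgs16, Spop, Klf13 and Pou2f1 shared an interval with a stop codon summit, whereas the others named here were separate. Hdac4 is a class IIa histone deacetylase, Klf13 and Pou2f1 are transcription factors, and Tns3 is a tensin of focal adhesions. Dcun1d2 stood farthest from its stop codon, at 1262.5 nt of a 1933 nt 3′ UTR, with a fold enrichment of 23.1 and 26.8 with shCTR and of 24.5 and 22.9 with shMettl14. The Tns3 region had the most fragments of these, 109 and 87 with shCTR and 84 and 76 with shMettl14.

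Several 3′ UTRs carried more than 1 distal region: 148 genes had 2, 23 had 3 and 3 had 4. Ties were broken by the number of summits, so Smad3 and Mvb12b were named from among the 23. Sned1, which encodes an extracellular matrix protein, had regions at median distances of 474.5, 2013.5, 2721 and 3407 nt in a 3′ UTR of 4787 nt. The region nearest the stop codon was in all 4 lists with a fold enrichment of 15.5, 13.6, 11.3 and 8.52, and the one at 2721 nt was in shMettl14 A alone, with 7 fragments. The strongest of the 4 by mean percentile was the one nearest the stop codon.

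Paqr8, a membrane progestin receptor, was strongest at the region 2099 nt past the stop codon (fold enrichment 11.3, 9.37, 11.5 and 6.63). Zfp704, a zinc finger gene with a 3′ UTR of 11767 nt, had a region in all 4 lists at 3632 nt and one in shCTR A alone at 8268 nt. Smad3, the signal transducer of TGF-β receptors, had regions at 302, 1323 and 2992 nt, of which the middle one was the strongest in each list (14.5, 20.7, 19.9 and 15.1). The 3 regions of Mvb12b, a subunit of the ESCRT-I sorting complex, were each in all 4 lists.

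**Figure D2:**
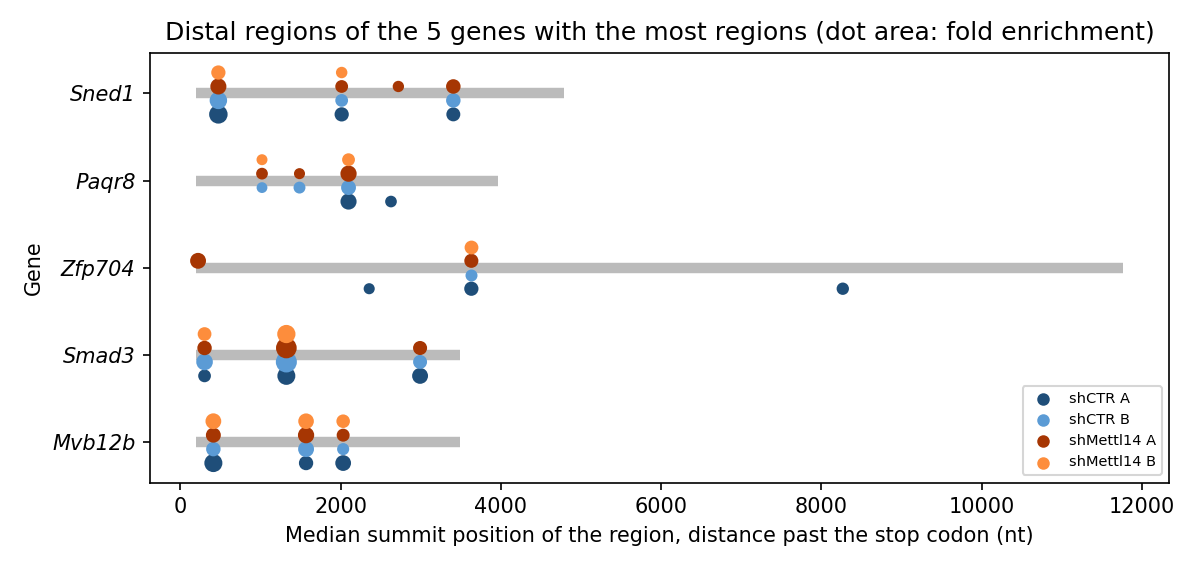
Median position of each distal region, as distance past the stop codon in nt, in the 5 genes with the most regions (ties broken by the number of summits). Grey bars run from 200 nt to the end of the 3′ UTR, dots mark the samples in which the region had its own distal summit, and dot area is proportional to fold enrichment; all 3 Mvb12b regions have dots from all 4 samples, while the Sned1 region at 2721 nt has 1 dot.

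The farthest regions in all 4 lists were 2 in Aak1, a kinase of clathrin adaptors, and 1 in Fam210a, a mitochondrial protein gene. The Aak1 regions lay at 9962.5 and 8864 nt in a 3′ UTR of 15925 nt, and the nearer had 11.3, 16.9, 17.5 and 21.6-fold enrichment across the lists. Its mean percentile within the lists was 91.1.

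Distal summits were weaker than those within 200 nt of the stop codon. The median log2 fold enrichment differed from that of the latter by −0.0886 and −0.107 in the shCTR lists and by −0.0832 and −0.0886 in the shMettl14 lists. All 4 lists had the same direction, with a mean of −0.0919 ± 0.0105 (SD, n = 4), and the exact sign-flip permutation test over lists gave the smallest p it allows, 2 of 16 sign patterns, which cannot pass 0.05. The median number of fragments at a distal summit was 16, 16, 14 and 13 in the 4 lists, against 18.5, 19, 16 and 15 near the stop codon. Summits with 10 or fewer fragments made up 24.5 ± 0.240% of distal summits in shCTR and 31.0 ± 3.57% in shMettl14 (SD, n = 2; exact permutation p = 0.3333).

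Distal regions differed in how many lists held them. Of the 1873, 693 (37.0%) had a distal summit of their own in all 4 lists, 281 in 3, 359 in 2 and 540 in 1, and among other regions 41.4% had a summit in all 4. When any overlapping interval was accepted, 1035 distal regions (55.3%) were covered in all 4 lists, against 43.8% of other regions. Regions covered in all 4 lists had a median of 16 to 21 fragments at their summits, and those covered in 1 list had 7 to 8. Of the authors' 2 replicate overlap files, both held 996 of the distal regions, that of shCTR alone 158, that of shMettl14 alone 147 and neither 572.

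Regions were then split by distance. Of the 1873 regions, 1149 had a median distance of 201 to 500 nt, 362 of 501 to 1000 nt, 226 of 1001 to 2000 nt and 136 over 2000 nt. Any overlapping interval covered the region in all 4 lists for 61.8, 51.7, 38.9 and 36.8% of these groups, but a distal summit of its own was found in all 4 lists for 32.7, 49.7, 38.9 and 36.0%. By the latter measure the nearest group was the lowest, and the share decreased only from the group of 501 to 1000 nt on. Median fragments at the summit were 14 to 17 across the lists in the nearest group and 11 to 13.5 in the farthest.

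**Figure D3:**
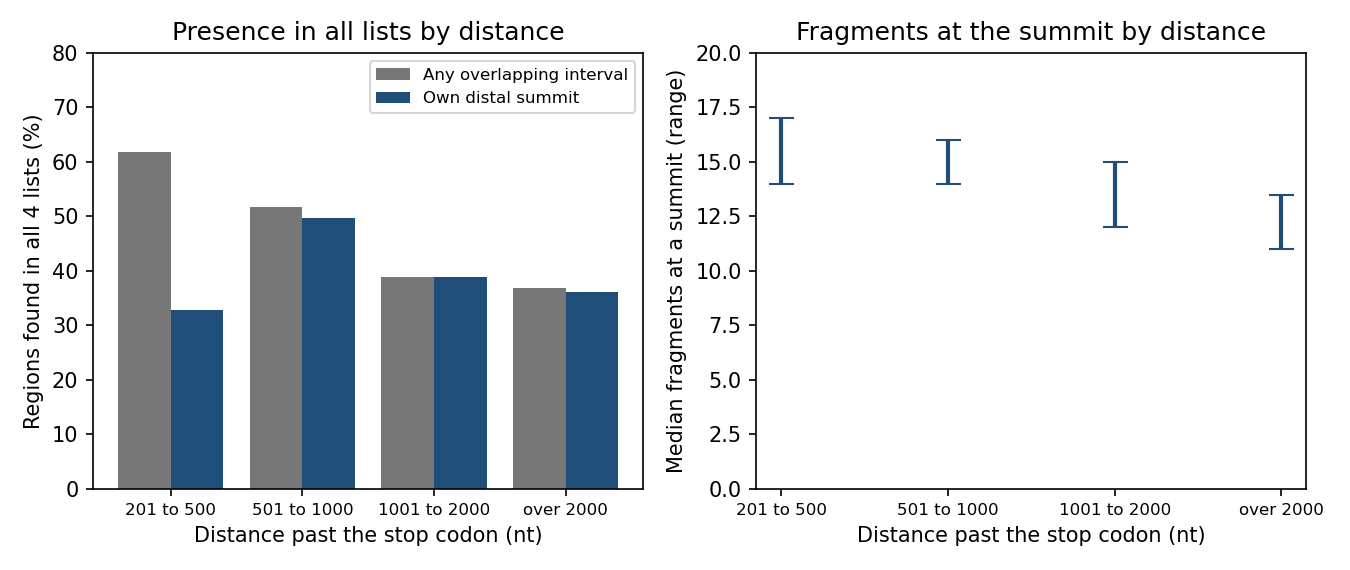
Left, the percentage of distal regions found in all 4 samples by distance past the stop codon in nt, with any overlapping interval (grey) or a distal summit of their own (blue). Right, the lowest to highest median number of fragments at a distal summit over the 4 samples; the grey bars fall from 61.8 to 36.8%, the blue bars go from 32.7 to 36.0% with their highest value, 49.7%, between 501 and 1000 nt, and the median goes from 14 to 17 fragments down to 11 to 13.5.

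Some distal regions were continuous with a stop codon peak. In 657 regions (35.1%) an interval also held a summit within 200 nt of the stop codon, and 1216 were separate. A distal summit of their own was found in all 4 lists for 32.7% of the continuous regions and 39.3% of the separate ones. Any overlapping interval covered 83.9 and 39.8% in all 4 lists, but a stop codon peak alone can cover a continuous region. Median fold enrichment was 8.46 to 9.34 across the lists in the continuous regions and 7.15 to 7.80 in the separate ones, and the ranges did not overlap. The intervals that tie a region to the stop codon are by construction the wider ones, so the classes differ in more than position.

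The sequence around distal summits was compared with all positions of the distal 3′ UTRs of the same genes. DRACH was present within 50 nt of 96.9 ± 0.218% of distal summits in shCTR and 96.1 ± 1.53% in shMettl14 (SD, n = 2; exact permutation p = 1), against 88.9 to 89.1% of all positions. Since nearly every window holds DRACH, its GGAC core (the letters GGAC on the mRNA strand) was more informative. GGAC lay within 50 nt of 54.2 and 58.3% of distal summits with shCTR and of 49.8 and 54.1% with shMettl14, against 31.5 to 32.2% of all positions. The ratio to all positions was 1.58 to 1.81 across the lists, and for summits within 200 nt of the stop codon against their own positions it was 1.20 to 1.28. Positions were not matched by distance: distal summits clustered toward the stop codon, whereas the positions covered the whole distal 3′ UTR. The 2 ratios therefore cannot show which class of summits is more enriched in GGAC. The share itself was higher near the stop codon, at 55.1 to 61.2%, and higher than the distal share in each list, and GGAC was also more frequent there over all positions (46.1 to 47.9%). Both shMettl14 lists had a lower distal GGAC share than both shCTR lists. The means were 56.3 ± 2.89% for shCTR and 51.9 ± 3.04% for shMettl14 (SD, n = 2, exact permutation p = 0.3333, the smallest possible). Within 200 nt of the stop codon the order was the same, with 57.0 and 61.2% in shCTR and 55.1 and 56.6% in shMettl14.

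Of the DRACH 5-mers, GGACT had the highest ratio (mean 1.98 over the lists) and GGACA and GAACT followed (1.80 and 1.78). By distance, GGAC lay near 48.8 to 54.8% of summits between 201 and 500 nt, 50 to 59.3% between 501 and 1000 nt, 47.9 to 65.0% between 1001 and 2000 nt and 60.8 to 68.8% beyond 2000 nt. The ranges over the lists overlapped among the 3 nearer groups, that beyond 2000 nt overlapped the range between 1001 and 2000 nt, and the share within 200 nt of the stop codon was above that between 201 and 500 nt. AATAAA, the polyadenylation signal, was less frequent near distal summits than elsewhere (2.74 to 3.55% against 7.79 to 8.17% of positions), and ATTTA, the core of AU-rich elements, was present near 7.86 to 9.35% of summits against 11.6 to 12.2% of positions. These positions were not matched by distance, and the last of the 10 equal parts held only 0.748 to 1.35% of distal summits. For summits within 200 nt of the stop codon against their own positions, the AATAAA ratio was 0.914 to 1.20. GGAC and GGACT overlap, so their shares are not independent.

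To determine which distal regions were marked with 1 shRNA alone, a distal summit was required in both of its lists and no overlapping interval in those of the other shRNA. This held for 22 regions with shCTR (control-only, 1.17% of 1873) and for 33 with shMettl14 (knockdown-only, 1.76%). Over all distal and other regions the shares were 1.59% control-only and 1.67% knockdown-only, so both counts were near the background. The 657 regions continuous with a stop codon peak, which that peak can cover, held 1 control-only and 0 knockdown-only regions. The 1216 separate ones held 21 and 33, and other regions were not split in a like way. The counts changed with the stringency of the lists. With the same number of top summits from every list 48 regions were control-only and 13 knockdown-only, so the order turned.

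The strongest control-only region was in Notch2, a receptor of the Notch pathway (chr3:98149416-98149586), 2060.5 nt past the stop codon. It had 15 and 11 fragments in the shCTR lists, at 9.50 and 8.39-fold. A second Notch2 region, 703 nt past the stop codon, was in all 4 lists at 13.1, 13.9, 12.3 and 14.1-fold. Thus 1 of 2 regions in the same 3′ UTR was listed with both shRNAs. Cd80, a costimulatory ligand, and the zinc finger gene Zfp955b followed, with 7 to 16 fragments.

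The strongest knockdown-only region was in Irs2, an adaptor of insulin and IGF receptors (chr8:10985117-10985278), with 12 and 9 fragments in the shMettl14 lists. Mlxip, a glucose-responsive transcription factor, had 14 and 17 fragments, and Preb, a guanine nucleotide exchange factor of COPII transport, had 10 and 9. These regions had few fragments beside the strongest ones above.

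When a region was required only to have no distal summit of its own with the other shRNA, 114 regions had one in both shMettl14 lists and none in shCTR, and 35 the reverse. These patterns made up 6.09 and 1.87% of distal regions, against 2.5 and 1.93% over all distal and other regions. Among other regions alone they were found in 187 and 198 (1.84 and 1.95%). With the same number of top summits from every list, a setting added after seeing the data, the distal counts were 76 and 62, so the gap between them was smaller. Of the 114, 81 were covered by an interval in at least 1 shCTR list, and 80 shared an interval with a stop codon summit. Jun, Foxo3, Fosl2 and Cdh11 were examples, with an interval in all 4 lists. The Jun region, for instance, had 59 and 66 fragments at distal summits in shMettl14, and in the shCTR lists it was covered by an interval without a distal summit.

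To compare enrichment between shRNAs, fold enrichment was ranked within each list, turned into normal scores and tested with limma over the 4905 regions that had a summit in all 4 lists. Of the 1873 distal regions, 693 entered this test. It left out regions without a summit in some list, and with them any that appeared or disappeared with 1 shRNA. No distal region passed an adjusted p of 0.05, and 1 of all regions did (0.0204%). At an unadjusted p under 0.05, 21 distal regions were higher and 18 lower with shMettl14, against 2.43% higher and 2.53% lower over all regions, so the distal count (5.63% in all) was close to the background. The median difference over distal regions was −0.0026, against 0.0027 over all regions, with 345 higher and 348 lower. Ranking within a list fixes the median over all regions near 0, so this balance cannot show a general loss or gain of enrichment. The medians before ranking cannot show one either. They cover only the summits called in each list, and separately called lists do not share 1 scale. Before ranking, the median fold enrichment of distal summits was 8.11 ± 0.170 in shCTR and 8.06 ± 0.589 in shMettl14 (SD, n = 2; exact permutation p = 1).

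Fisher's exact test on the recovered fragments of the same regions, summed over the lists of each shRNA, covers counting error only and leaves out the spread between samples. It called 0 distal regions after adjustment (20 of 693 at an unadjusted p under 0.05, or 2.89%, against 2.71% of all regions), where it called 0% of all regions higher and 0.0204% lower. With an unadjusted p under 0.05 and a log2 fold over 1, it gave 4 distal regions higher and 1 lower: Kdm4b, Vangl1, Zfp790 and Serac1 higher, and Gbp7 lower. Over all regions this rule called 0.428% higher and 0.122% lower, 21 and 6 regions, so the distal counts were near the background and more calls were higher than lower in both.

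Gbp7, an interferon-induced guanylate-binding protein, had the smallest p (chr3:142547542-142548174). Its fold enrichment was 14.4 and 10.2 in the shCTR lists and 6.09 and 3.82 in the shMettl14 lists, with 18, 14, 6 and 3 fragments. The groups did not overlap, and the normal score difference was −2.23 ± 0.53 (SE; limma, adjusted p = 0.747). Without shMettl14 A the adjusted p was 0.0343, in a fit whose lone shMettl14 list, the one with 3 fragments, is assumed to vary like the shCTR lists. Gbp genes form a family of similar sequence, and how the study's unique mapping divided their reads was not tested.

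Gata3, a zinc finger transcription factor, had 16 and 17 fragments in shCTR and 9 and 5 in shMettl14 (normal score difference −1.56 ± 0.53, limma adjusted p = 0.829). Fam210a had 13 and 11 against 6 and 5 fragments (−1.40 ± 0.49, limma adjusted p = 0.861). Higher with shMettl14 were Serac1 (1.56 ± 0.49), Ppp1r3b (1.54 ± 0.49) and Stx5a (1.55 ± 0.50), each with a limma adjusted p of 0.784. Serac1 takes part in phospholipid remodelling, Ppp1r3b is a glycogen-targeting subunit of protein phosphatase 1, and Stx5a is a Golgi syntaxin. Fragments for Ppp1r3b were 4 and 5 in shCTR and 7 and 8 in shMettl14, a difference of few fragments.

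**Figure D4:**
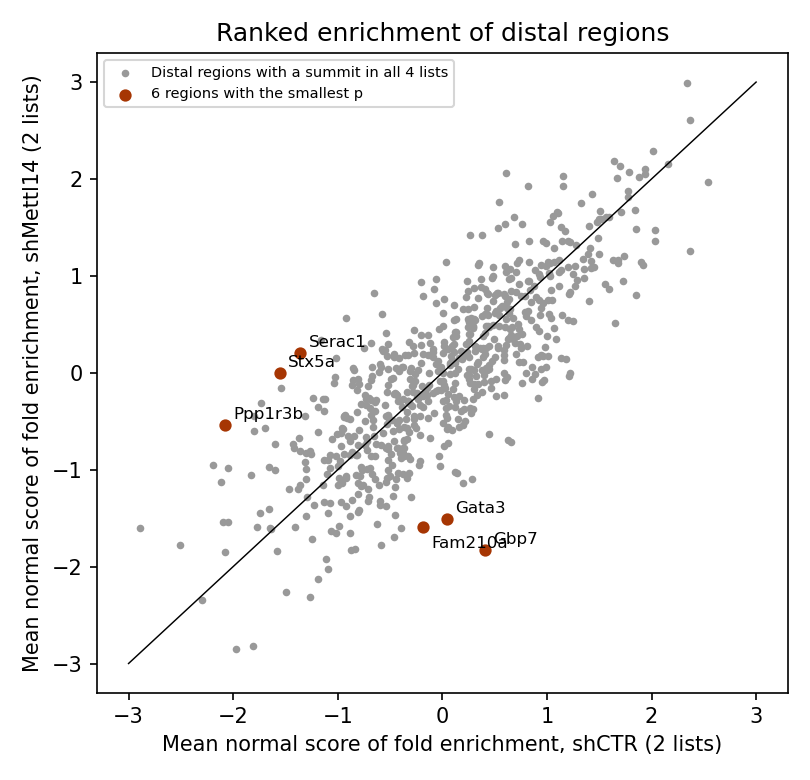
Mean normal score of fold enrichment in the 2 shMettl14 samples against that in the 2 shCTR samples, for the 693 distal regions with a summit in all 4 samples; the line marks equality. The 6 labelled regions have the smallest p in each direction, and none passed the adjusted threshold.

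Genes were grouped by function to describe which transcripts carried distal regions. Regions named below that shared an interval with a stop codon summit were those of Pdgfb, Pdgfa, Tgfb2, Sox9, Klf4, Itga5, Cdkn2b and Dusp5. The same held for Ski, Fzd7, Lmod1, Mrtfb, Srf, Ccn1, Fbln2, Thbs1 and Zfp36l2. Over all coding genes with a summit and a 3′ UTR past the limit, 34.6% had a distal region. A gene counted if any 1 list held a distal summit, and 661 of these 1671 genes had a region in all 4 lists. Growth factor receptors and ligands stood at 12 of 19 genes with a summit, 8 of them with a region in all 4 lists. Pdgfb, a mitogen of VSMCs, had 18.7, 25.2, 22.1 and 20.7-fold enrichment 354.5 nt past its stop codon. Pdgfa reached 17.3 to 21.9-fold, and Tgfb2 had 22.8 and 25.1-fold in shCTR and 16.4 and 19.2-fold in shMettl14 (normal score difference −0.67 ± 0.49, limma adjusted p = 0.992).

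The receptor for Pdgfb, Pdgfrb, had regions at 303.5 and 1242 nt, both in all 4 lists. Igf1r had regions 4523 and 5375 nt past the stop codon, both in all 4 lists with 45 to 71 fragments. Insr had one at 1828 nt in all 4 lists. These receptors thus carried distal regions far beyond the stop codon.

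Among the transcription factors of smooth muscle and injury, 11 of 21 genes with a summit had a distal region, 7 of them in all 4 lists. Sox9, a driver of chondrogenic genes, had 18.3 to 24.8-fold enrichment 237 nt past the stop codon, and Klf4, a factor of VSMC dedifferentiation, had 14.1 and 14.6-fold in shCTR and 11.5 and 10.7-fold in shMettl14 at 313.5 nt. Its fragments were 48 and 40 against 34 and 24, so both shMettl14 lists were lower, with a normal score difference of −0.50 ± 0.49 (SE; limma, adjusted p = 0.9998). Adhesion and migration genes had 9 of 14, 6 of them with a region in all 4 lists. Itga8, an integrin subunit of VSMCs, reached 14.8 to 19.2-fold and Itga5, the fibronectin receptor subunit, 15.5 to 18.1-fold.

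Cell cycle genes had 5 of 7, 2 of them with a region in all 4 lists, and Cdkn2b, an inhibitor of Cdk4 and Cdk6, was at 12.9 to 15.5-fold. Ccnd2, a D-type cyclin, was weaker at 6.46 to 8.82-fold although it had 54 to 95 fragments. Feedback inhibitors of signalling had 9 of 19, 3 of them with a region in all 4 lists. Dusp5, a phosphatase of Erk, was at 12.0 to 15.3-fold and Ski, a repressor of Smad signalling, at 10.9 to 12.4-fold. Notch and Wnt genes had 5 of 14, 3 of them with a region in all 4 lists, and Fzd7, a Wnt receptor, was at 10.7 to 17.1-fold.

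Contractile and cytoskeletal genes had 3 of 8 (Lmod1, Mrtfb and Srf). Mrtfb had a distal summit in the shMettl14 lists alone and Srf in shMettl14 A alone, though an interval covered both regions in all 4 lists, and Lmod1, a leiomodin that nucleates actin, was in all 4 lists at 12.7 to 22.8-fold. Extracellular matrix genes had 3 of 17 (Ccn1, Fbln2 and Thbs1). Fbln2 had a distal summit in the shMettl14 lists alone and Ccn1 in shMettl14 A alone, again with an interval in all 4 lists, and Thbs1, thrombospondin 1, had 87 to 128 fragments at only 6.46 to 8.55-fold. Genes of 3′ UTR binding and mRNA decay had 5 of 11, but only 1 had a region in all 4 lists. It was Zfp36l2, a factor that binds AU-rich elements, at 9.77 to 14.6-fold. The m6A writers, readers and erasers had 0 of 12. Of the 73 regions in these groups, 35 had a summit in all 4 lists and were tested with limma, and 0 of the 35 passed an adjusted or unadjusted p of 0.05, against 4.95% of all regions at an unadjusted p under 0.05.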

How the data were processed

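m6A-RIP-seq was performed on 8 libraries, of which the 4 immunoprecipitated samples had peak lists. Per the labels and methods, the authors aligned reads to mm10 with STAR, kept unique alignments with SAMtools and called peaks with MACS2 for each sample against its own input. Versions are not given in the sources used here. The deposited values were fold enrichment (a ratio of immunoprecipitate over background), −log10 p and −log10 q of each summit, and the summit offset, a position in bp from the start of the interval. The authors' overlaps of replicate intervals were used only to count members. The reads obtained per library are not in the lists (the methods give only a nominal depth), and the precision of a summit is limited by its fragments.

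Summits were placed on GENCODE M21 transcripts (21606 genes had a complete coding transcript). Fragments were recovered from fold enrichment and −log10 p. Region values were tested with limma 3.58.1 (R 4.3.3) with Benjamini-Hochberg adjustment, and list values with exact permutation tests; methods were tested on simulated data. The tests across regions used those with a summit in all lists. Motif windows were 50 nt. Named regions were the 10 strongest, those of the 5 genes with the most regions, the 3 strongest of each shRNA-specific class, the 3 with the smallest p in each direction, the 3 farthest and up to 2 per gene list; genes without a named symbol were passed over. Among the regions this rule named, 1 is not reported here. Members and lists were chosen with earlier results of these data known. Settings tried were ranking, normalization, summit number, distances, overlap, motif window, Fisher's exact test and leaving out lists. Sequences came from the GENCODE M21 transcripts; none from chromosome 18 is shown.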

Additional observations from a re-analysis of the deposited data

How the results depend on the processing

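The distal share stayed higher with shMettl14 under every alternative tried, as distal fold enrichment stayed lower than that near the stop codon. For the distal share, leaving out a list gave differences of 0.385 to 1.86 points, and with the limit at 400 nt the difference was 0.427. The difference in DRACH share (−0.853 points) turned to 0.101 with a window of 100 nt and ranged from −1.93 to 0.227 when a list was left out, the highest without shMettl14 A. The difference in median distance (−13.5 nt) turned to 12 with the strongest summit of each interval; as distance to the transcript end it was 39.75 nt; the cause was not tested. The control-only and knockdown-only counts (22 and 33) became 48 and 13 with the same number of top summits per list, and 34 and 21 with −log10 q of at least 5. Leaving out a list gave 41 to 151 control-only and 61 to 167 knockdown-only regions, where fewer lists have to hold or lack an interval. Calls after adjustment were 0 under each ranking, and 0 to 1 when a list was left out (1, Gbp7, without shMettl14 A, where the lone shMettl14 list is assumed to vary like the shCTR lists). At an unadjusted p under 0.05 the count of 39 became 25 with the same number of top summits (557 regions tested) and 20 with Fisher's exact test. The replicate letters were not stated to pair samples: A minus B correlated at 0.0688 between shRNAs over 4905 regions and at 0.0924 over 693 distal ones. With the letter as a replicate block, 0 distal regions passed the adjusted threshold and 42 an unadjusted p under 0.05. The GGAC share stayed lower with shMettl14, by −4.34 points over all distal summits; under settings added after seeing the data the difference was −4.23 with the same number of top summits and −6.49 to −2.19 when a list was left out.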
